A study of Mus musculus with 4 samples.

Results

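Glucuronidation was described through 6 mouse genes: Ugdh, which encodes UDP-glucose dehydrogenase, and the UDP-glucuronosyltransferase genes Ugt1a1, Ugt1a6a, Ugt2b5, Ugt2b34 and Ugt2b35. The members were the probes annotated to 1 of these genes alone, 8 of 15478 probes, standing for 6 of 9285 named genes. Ugt1a6a had 3 probes and each of the other 5 genes had 1. Gene expression was compared on 2-colour arrays between wild-type liver (Trsp, Cy3) and mutant liver (Cy5) of male B6/FVB littermates aged 7 to 8 weeks on a diet with sufficient selenium. Trsp encodes the tRNA that inserts selenocysteine into selenoproteins. DTrsp livers had no Trsp, A34 mice had 2 copies of a transgene for a tRNA in which an A replaces a T at the position the line is named for, G37L mice had 2 copies of one in which a G replaces an A, and G37H mice had 16 copies of that second transgene. What removed Trsp from the liver, and whether transgenic mice kept their own Trsp, the labels do not state.

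Each line has 1 deposited value per probe, which the authors averaged over 3 animals for G37H and over 4 for each of the other lines. There are no replicate values, so no SD, interval or p-value can be given and no difference below is set against a spread between animals. Values are read as log2 of mutant over wild type. That direction is likely from the dye labels, though the titles put wild type before the mutant, and the base of the logarithm is an assumption; a turned ratio would exchange higher and lower throughout. Genes 1 or more from 0 on this scale, meaning at least 2-fold apart, were counted. Column medians over all genes were 0.16 in DTrsp liver, 0.07 in A34, -0.11 in G37L and -0.11 in G37H. No probe was named for Trsp, and ratios carry no level, so neither the removal of the tRNA gene nor the tissue could be checked against marker levels. In whole liver, fewer cells of a type and less RNA per cell cannot be told apart.

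Glucuronidation joins glucuronic acid to bilirubin, steroids, bile acids, drugs and other lipid-soluble compounds, so that they can leave in bile or urine. UDP-glucose dehydrogenase makes the donor, UDP-glucuronic acid, from UDP-glucose in the cytosol, and the UDP-glucuronosyltransferases use it in the membrane of the endoplasmic reticulum. The liver is the main site of this pathway. Genes of the Ugt1a cluster each have their own first exon and promoter and are spliced to a shared set of later exons, whereas Ugt2 genes are separate genes in a row. In the RefSeq annotation of assembly GRCm38.p6 all 9 Ugt1a genes lie on chromosome 1, and 7 of them end at the same base. The 10 Ugt2 genes and Ugdh lie on chromosome 5.

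The 250 bases before the annotated start of 4 members are shown, because Ugdh and Ugt2b35 were the highest members in DTrsp and Ugt1a6a and Ugt1a1 the highest in A34. The sequences are from RefSeq, build GRCm38.p6, and run 5′ to 3′ on the gene's strand. Capitals mark matches, on either strand, to 3 motifs: TGACNNNGC, the core of the antioxidant response element bound by NRF2 with small Maf proteins; GCGTG, the core of the xenobiotic response element bound by the aryl hydrocarbon receptor; and GTTAAT, a half-site of the hepatocyte factor HNF1. The windows are chr5:65435843-65436092 on the minus strand for Ugdh, chr5:87000610-87000859 on the plus strand for Ugt2b35, chr1:88134559-88134808 on the plus strand for Ugt1a6a and chr1:88211709-88211958 on the plus strand for Ugt1a1.
Ugdh: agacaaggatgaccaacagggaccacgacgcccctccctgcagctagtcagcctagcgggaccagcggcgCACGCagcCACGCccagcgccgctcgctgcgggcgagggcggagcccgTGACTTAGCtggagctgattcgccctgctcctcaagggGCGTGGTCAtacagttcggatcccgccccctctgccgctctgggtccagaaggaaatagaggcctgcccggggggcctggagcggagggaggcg
Ugt2b35: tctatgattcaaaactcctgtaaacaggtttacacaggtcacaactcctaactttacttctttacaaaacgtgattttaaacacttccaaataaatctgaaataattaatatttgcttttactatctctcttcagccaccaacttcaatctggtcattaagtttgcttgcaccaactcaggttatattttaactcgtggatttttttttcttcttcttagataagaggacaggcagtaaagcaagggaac
Ugt1a6a: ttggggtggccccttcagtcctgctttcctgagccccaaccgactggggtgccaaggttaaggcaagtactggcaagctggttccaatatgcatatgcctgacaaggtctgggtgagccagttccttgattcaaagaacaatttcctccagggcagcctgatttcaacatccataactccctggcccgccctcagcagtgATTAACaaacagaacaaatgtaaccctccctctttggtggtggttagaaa
Ugt1a1: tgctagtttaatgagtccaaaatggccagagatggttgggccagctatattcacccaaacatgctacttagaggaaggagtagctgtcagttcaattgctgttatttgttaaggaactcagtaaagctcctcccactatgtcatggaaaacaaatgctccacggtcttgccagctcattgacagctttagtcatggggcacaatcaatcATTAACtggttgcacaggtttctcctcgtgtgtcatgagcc

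The Ugdh window held 2 matches to the antioxidant response element core, TGACTTAGC on the gene's strand and GCGTGGTCA, a match on the opposite strand. It also held 3 matches to the xenobiotic response element core, 1 of which overlaps the second antioxidant match. The Ugt1a6a and Ugt1a1 windows each held 1 HNF1 half-site, written ATTAAC as it lies on the opposite strand, and no other match. The windows of Ugt2b35, Ugt2b5 and Ugt2b34 held none of the 3 motifs. Outside the 6 genes, the HNF1 half-site also lay in the windows of Ugt1a9, Ugt1a10, Ugt2a3 and Ugt3a1. In A34 these genes were at -0.07, 0.06, -0.10 and 0.87, so the half-site was not particular to the genes high in A34. Of 32851 windows of the same length in the promoter table, 10.2% held the antioxidant core, 28.2% the xenobiotic core and 6.43% the HNF1 half-site. A match describes the letters alone and is no measurement of binding.

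Ugdh was the highest of the 6 genes in DTrsp liver. Its log2 ratio was 2.62 in the knockout, 0.07 in A34, -0.13 in G37L and -0.21 in G37H. DTrsp stood alone: the transcript was 6.14-fold higher than in wild type, the 10th highest of 9285 genes, while the 3 transgenic lines lay near their column medians, G37H farthest at -0.10 relative to its own. The difference from DTrsp was -2.55 in A34, -2.75 in G37L and -2.83 in G37H liver. These 3 differences share the DTrsp value, and the labels do not say whether the lines shared wild-type animals.

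The Ugt2b genes encode enzymes that conjugate steroids, bile acids and many drugs. Ugt2b35 had the widest range of the 6 genes. Its log2 ratio was 2.21 in DTrsp liver, 0.11 in A34, -1.24 in G37L and -0.47 in G37H. It was 4.62-fold higher than wild type in the knockout and 2.37-fold lower in G37L, so the direction differed between these lines. The difference of G37L minus DTrsp was -3.45, the 6th lowest of 9285 genes. Ugt2b34 was at 1.17 in the knockout, 0.03 in A34, -0.58 in G37L and 0.05 in G37H. Ugt2b5 was at 1.11 in DTrsp liver, 0.42 in A34, -0.49 in G37L and -0.18 in G37H. In each of these Ugt2b genes DTrsp was the highest line and G37L the lowest. The 2-fold calls of Ugt2b34 and Ugt2b5 in DTrsp depend on the centring: relative to the column median Ugt2b34 was at 1.01 and Ugt2b5 at 0.95, and relative to abundant transcripts they were at 0.64 and 0.58.

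Ugt1a1 and Ugt1a6a had another pattern, with A34 as the highest line. Ugt1a1 encodes the enzyme that conjugates bilirubin. Its log2 ratio was -0.20 in the knockout, 1.21 in A34, -0.28 in G37L and 0.39 in G37H. Ugt1a6a encodes an enzyme for small planar phenols. Averaged over its 3 probes it was at 0.34 in DTrsp liver, 1.39 in A34, -0.19 in G37L and -0.18 in G37H liver. The 3 probes gave 1.01, 1.24 and 1.91 in A34, each at least 2-fold higher than wild type, and lay between 0.28 and 0.39 in DTrsp, -0.23 and -0.16 in G37L and -0.21 and -0.16 in G37H. The 3 probes spanned 0.90 in A34 and at most 0.11 in the other lines. They read the same averaged samples, so these spans are no spread between animals. Set against the knockout, A34 was 1.41 higher for Ugt1a1 and 1.04 higher for Ugt1a6a on the log2 scale.

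**Figure D1:**
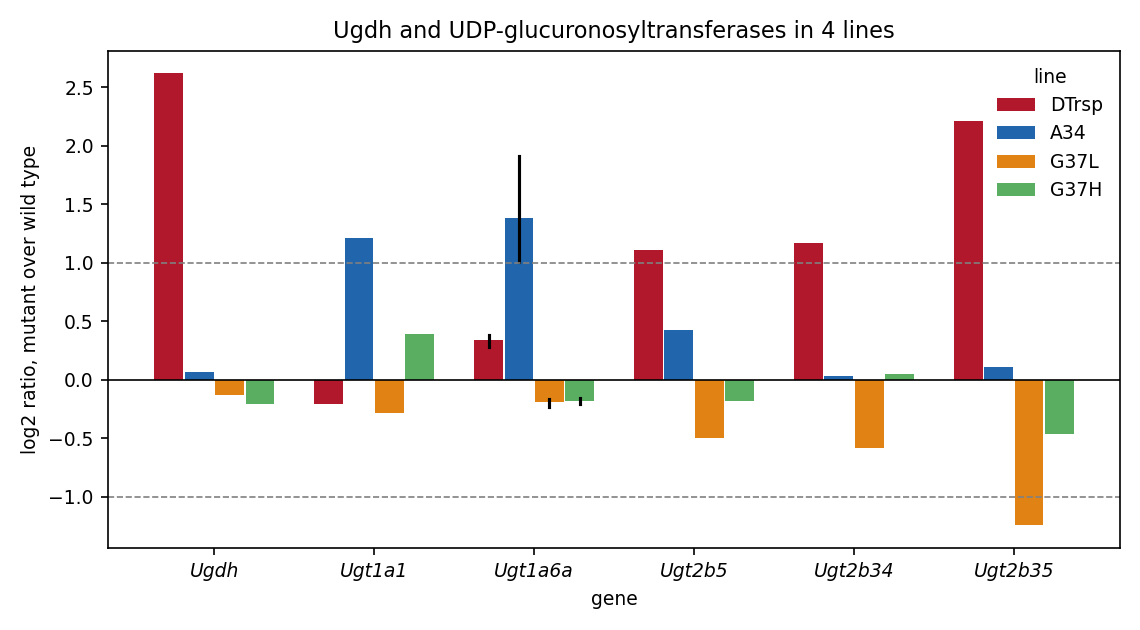
Log2 ratio of mutant over wild type (y axis) for the 6 genes (x axis) in DTrsp, A34, G37L and G37H; bars are the deposited averages, black lines on Ugt1a6a span its 3 probes, and dashed lines mark 2-fold. Ugdh (2.62), Ugt2b35 (2.21), Ugt2b34 (1.17) and Ugt2b5 (1.11) pass the upper line in DTrsp, and Ugt1a6a (1.39) and Ugt1a1 (1.21) pass it in A34.

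By line, 4 of the 6 genes were at least 2-fold higher in DTrsp, where 3.27% of all genes were, and 0 at least 2-fold lower, where 1.62% of all genes were. Their median log2 ratio was 1.14, against 0.16 over all genes. In A34, 2 of 6 were at least 2-fold higher, against 1.4% of all genes, and 0 lower, against 0.452%, with a median of 0.27 against 0.07. In G37L, 1 of 6 was at least 2-fold lower, against 3.96% of all genes, and 0 higher, against 2.51%, and the median was -0.39 against -0.11. All 6 were below 0 in G37L, as were 60.6% of all genes. In G37H, 0 of 6 were at least 2-fold higher, against 2.78%, and 0 lower, against 3.1%, and the median was -0.18 against -0.11. The genes were put together with results of these data known, so these counts describe them and are no independent evidence.

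**Figure D2:**
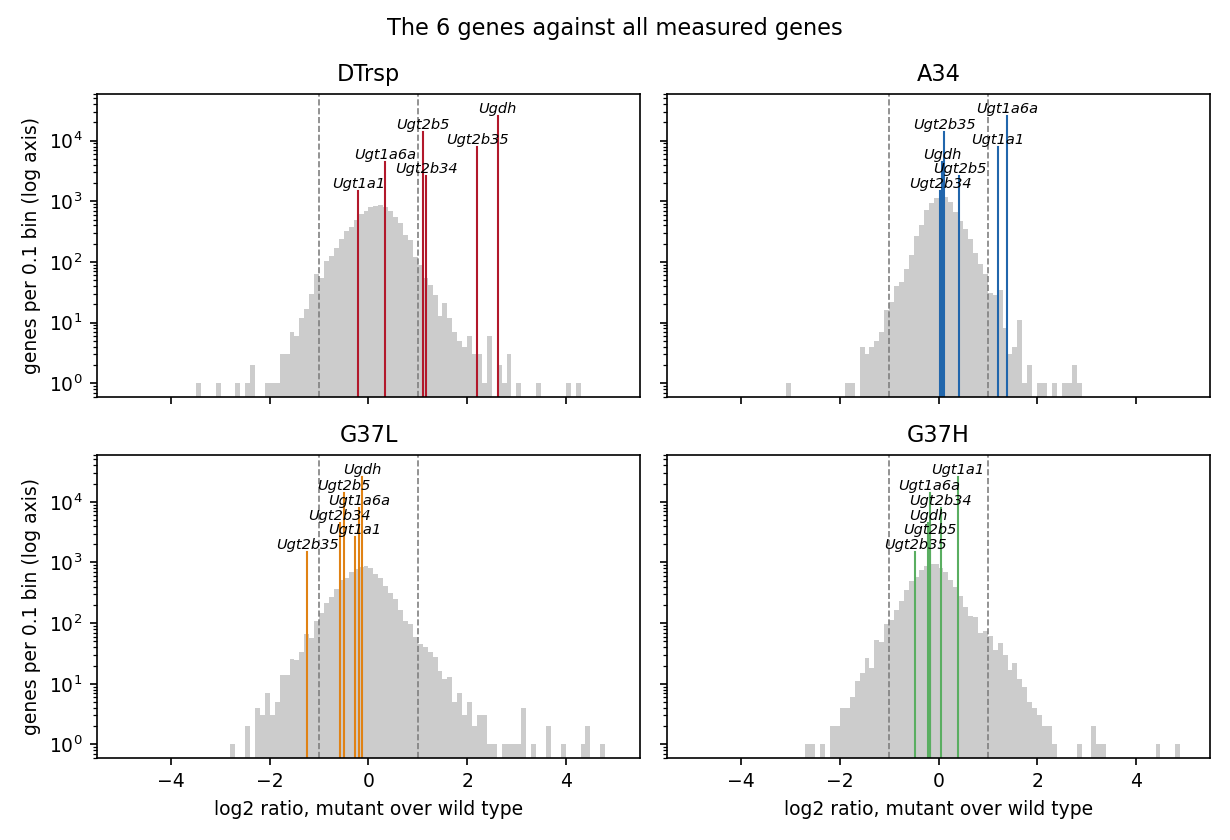
Number of genes per 0.1-wide bin of log2 ratio (log y axis) in each line for all 9285 genes (grey), with the 6 genes as coloured lines whose heights carry no value; dashed lines mark 2-fold. In DTrsp 4 of the lines lie beyond the upper dashed line, in A34 2, and in G37L 1 lies beyond the lower one.

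Between lines, 2 of the 6 genes were at least 2-fold higher in A34 than in DTrsp, against 4.48% of all genes, and 3 at least 2-fold lower, against 4.09%. The lower ones were Ugdh, Ugt2b35 and Ugt2b34, and the higher ones Ugt1a1 and Ugt1a6a. G37L was at least 2-fold below DTrsp for 4 genes, against 10.1% of all genes, and above it for 0, against 3.96%. G37H was below DTrsp for the same 4, Ugdh, Ugt2b5, Ugt2b34 and Ugt2b35, against 8.93%, and above it for 0, against 4.26%. G37L was at least 2-fold below A34 for Ugt1a6a, Ugt1a1 and Ugt2b35, 3 of 6 against 7.07% of all genes, and above it for 0, against 2.55%. With 16 transgene copies against 2, 0 of 6 genes were at least 2-fold higher, against 4.07%, and 0 lower, against 2.67%. The differences of G37H minus G37L ran from -0.08 for Ugdh to 0.78 for Ugt2b35. Centring on abundant transcripts left 2 of the 4 genes in the comparison of G37H with DTrsp, Ugdh and Ugt2b35. On that scale 3.07% of all genes were at least 2-fold lower.

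The single-gene Ugt1a probes are only part of what the array holds for this cluster. In all, 21 probes were annotated to Ugt1a genes, 10 to 1 gene and 11 to 2 genes, and the latter name no gene and enter no gene value. Of the 11, 7 were annotated to Ugt1a9 together with another gene of the cluster, and these 7 covered a narrow range within each line. They lay between 0.87 and 1.08 in DTrsp, 0.04 and 0.39 in A34, -0.18 and 0.13 in G37L and 0.32 and 0.51 in G37H. In DTrsp all 7 were above the Ugt1a1 probe and the 3 Ugt1a6a probes, and in A34 all 7 were below them. In DTrsp 4 of the 7 were at least 2-fold higher than wild type, against 3.84% of single probes on the array, and in A34 0 of 7 were, against 2.4%. One of the 7 is annotated to Ugt1a1 with Ugt1a9, and it read 0.87 in DTrsp and 0.07 in A34, against -0.20 and 1.21 for the probe of Ugt1a1 alone. Their sequences were not used here, so whether they lie in the shared exons is not known, and probes of shared sequence are not independent measurements.

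Other probes that name Ugt1a6a gave unlike values in A34. The 2 probes annotated to Ugt1a6a together with its near copy Ugt1a6b were at 1.14 and 1.30 in A34. In the other lines they were at or below 0.26, with -0.83 and 0.26 in DTrsp, -0.51 and -0.05 in G37L and -0.24 and -0.14 in G37H. All 5 probes that name Ugt1a6a alone or with Ugt1a6b were thus at least 2-fold higher in A34. The probe annotated to Ugt1a6a with Ugt1a9, one of the 7 described above, was not, at 0.08 in A34 and 1.08 in DTrsp, and the probe of Ugt1a6b with Ugt1a9 was at 0.04 and 0.91. The 2 probes annotated to Ugt1a5 with Ugt1a2 lay at -0.02 and 0.08 in A34 and at -0.06 and -0.03 in DTrsp.

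Probes of 1 gene disagreed for Ugt1a9 and Ugt1a10, which are not among the 6 genes. The 3 Ugt1a9 probes read 0.10, 0.92 and 1.57 in DTrsp and 1.22, -0.02 and 1.62 in G37L. The second of them lay within the range of the 7 probes described above in every line. The 2 Ugt1a10 probes read 0.42 and 1.99 in DTrsp and -0.31 and 1.59 in G37L, so their gene means of 1.20 and 0.64 stand for unlike values. Ugt1a5 had 1 probe, at 0.03 in the knockout, -0.63 in A34, -0.72 in G37L and 0.72 in G37H.

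**Figure D3:**
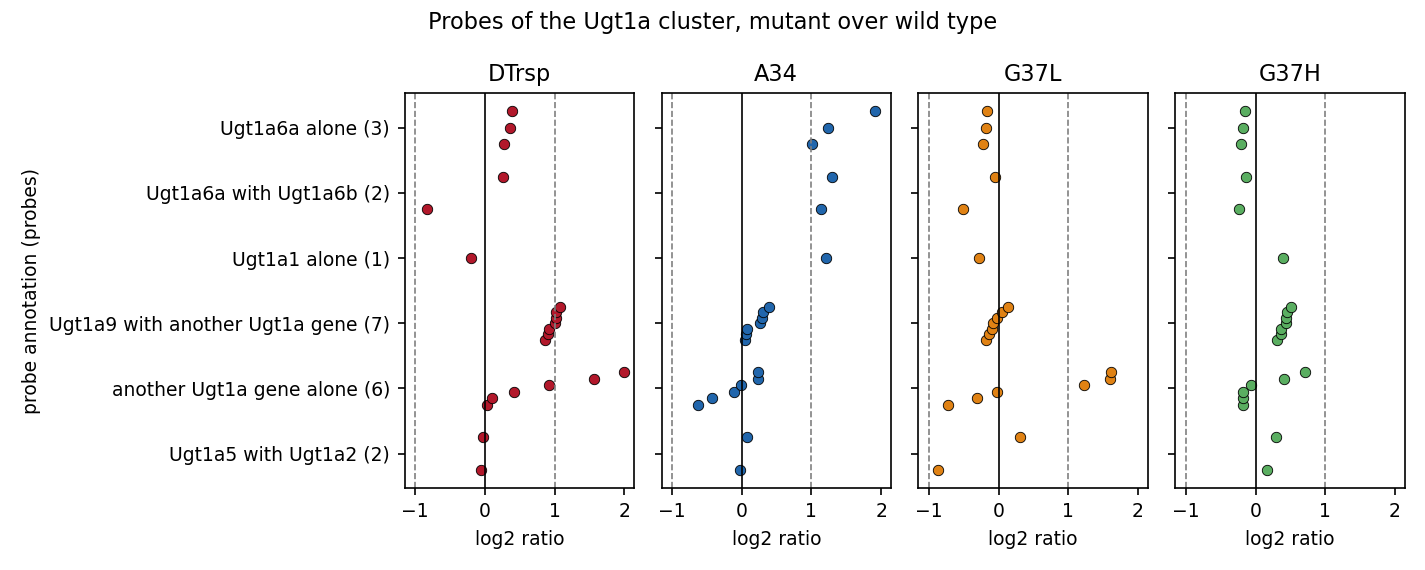
Log2 ratio of mutant over wild type (x axis) of the 21 probes of the Ugt1a cluster in each line, grouped by the genes they are annotated to (y axis, number of probes in brackets); each point is 1 probe, set apart vertically within its group by order of value, and dashed lines mark 2-fold. The 5 upper probes, which name Ugt1a6a alone or with Ugt1a6b, lie between 1.01 and 1.91 in A34, and the 7 probes of Ugt1a9 with another gene lie between 0.87 and 1.08 in DTrsp.

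Of the 10 Ugt2 genes of the chromosome 5 cluster, 6 were measured, and their ratios in DTrsp did not follow one level along it. In annotation order they were Ugt2b34 at 1.17, Ugt2b1 at 0.64, Ugt2b35 at 2.21, Ugt2b5 at 1.11, Ugt2a3 at 0.37 and Ugt2b38 at -0.84. Ugt2b38 stood apart from the other 5 in the transgenic lines too. On its 1 probe it was at 1.17 in A34, 2.75 in G37L and 1.07 in G37H, so it was at least 2-fold higher in all 3 transgenic lines and the 16th highest gene in G37L, the line in which Ugt2b35 was lowest. Ugt2b genes resemble each other in sequence, and cross-hybridisation between them was not tested.

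The remaining genes of the family encode enzymes that mostly use sugar donors other than UDP-glucuronic acid. Ugt3a1 was at 1.09 in DTrsp liver, 0.87 in A34, 0.76 in G37L and 1.07 in G37H. Its 4 values spanned 0.33, whereas those of the 6 genes spanned from 1.49 for Ugt1a1 to 3.45 for Ugt2b35. Ugt3a2 was at 0.97 in DTrsp and between 0.19 and 0.32 in the other lines, and Ugt8a, which makes galactosylceramide, was at -0.14 in DTrsp and 0.67 in G37H. Among the 9 measured Ugt genes outside the 6, 2 were at least 2-fold higher in the knockout, against 3.27% of all genes, 1 in A34, against 1.4%, 1 in G37L, against 2.51%, and 2 in G37H, against 2.78%. None of the 9 was at least 2-fold lower in any line, where the shares of all genes ran from 0.452% in A34 to 3.96% in G37L.

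Genes that supply UDP-glucuronic acid included others that were high in DTrsp. Of 10 measured genes listed for UDP-sugar supply, 2 were at least 2-fold higher in DTrsp, against 3.27% of all genes. There 0 were lower, against 1.62%, and the list's median was 0.70, against 0.16 over all genes. Not every gene on this list leads to UDP-glucuronic acid. The 2 higher genes were Ugp2, the pyrophosphorylase that makes UDP-glucose, at 1.36, and Slc35d1, which carries UDP-glucuronic acid into the endoplasmic reticulum, at 1.22. Thus the enzyme before Ugdh, Ugdh itself and the transporter after it were each at least 2-fold higher in DTrsp. In the transgenic lines Ugp2 was at -0.20 in A34, -0.68 in G37L and -0.98 in G37H, and Slc35d1 at 0.21, -0.32 and -0.29. The list's median was 0.07 in A34, -0.33 in G37L and -0.13 in G37H. In these lines the 1 gene at least 2-fold from 0 was Slc35b1, of the nucleotide sugar transporter family. It was at 1.45 in G37L, where 2.51% of all genes were at least 2-fold higher.

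Of 13 measured genes that use or break down glucuronate, 2 were at least 2-fold higher in DTrsp, against 3.27% of all genes, and 0 lower, against 1.62%. The list's median was 0.12, below the 0.16 of all genes. The aldehyde reductase Akr1a1, which reduces glucuronate on the way to ascorbate, was at 1.23 in DTrsp liver, 0.34 in A34, -0.11 in G37L and 0.08 in G37H liver. The crystallin-like Cryl1, which oxidises the resulting gulonate, was at 1.43 in the knockout, 0.30 in A34, -1.23 in G37L and -0.44 in G37H. Like Ugt2b35, Cryl1 was at least 2-fold higher in DTrsp and at least 2-fold lower in G37L.

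Of 9 measured transporters listed for glucuronide export and uptake, 2 were at least 2-fold higher in DTrsp, against 3.27% of all genes. There 1 was lower, against 1.62%, and the median of 0.18 was close to the 0.16 of all genes. Not every gene on this list is an established glucuronide transporter. The canalicular exporter Abcc2 was at 1.22 and the basolateral exporter Abcc3 at 1.39 in DTrsp. The uptake carrier Slco1a1 was at -2.66 in DTrsp and between 0.36 and 0.49 in the other lines. The exporters were lower than wild type in G37L, Abcc2 at -0.59 and Abcc3 at -0.72, neither 2-fold. The carrier Slco1a4 was at -1.04 in G37H, 0.04 in DTrsp, 0.31 in A34 and -0.22 in G37L.

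Hmox1 and Blvrb, 2 enzymes on the way from haem to bilirubin, were at least 2-fold higher in DTrsp, where the bilirubin-conjugating Ugt1a1 was at -0.20. Haem oxygenase Hmox1 was at 4.03 in DTrsp liver, 0.62 in A34, 1.27 in G37L and 1.09 in G37H. Biliverdin reductase Blvrb was at 1.68 in the knockout, -0.53 in A34, -1.08 in G37L and -0.69 in G37H, and Blvra, the other reductase, at -0.15, -0.15, -1.19 and 0.04. Of the 7 genes listed for haem breakdown, 2 were at least 2-fold higher in DTrsp, against 3.27% of all genes, and 0 lower, against 1.62%. In G37L 3 were higher, against 2.51%, and 3 lower, against 3.96%. The G37L members past 2-fold also included the haem-binding plasma protein Hpx at 1.71, the haemoglobin-binding Hp at 1.63 and the first enzyme of haem synthesis, Alas1, at -1.52, and Hp was at 1.07 in A34.

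Sulfation, the other main conjugation by transfer of a group from an activated donor, had 0 of 10 measured genes at least 2-fold higher in DTrsp, against 3.27% of all genes, and 0 lower, against 1.62%. With shares this small, a count of 0 does not set the list apart from all genes. Its genes ran from -0.20 to 0.57 there, with a median of 0.11 against 0.16. In other lines 2 genes were past 2-fold. Sult5a1 was at 1.03 in A34, where 1.4% of all genes were at least 2-fold higher. Papss2, which makes the sulfate donor, was at -1.49 in G37L, where 3.96% were at least 2-fold lower.

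Transcripts of xenobiotic and hepatocyte regulators, receptors and transcription factors among them, were within 2-fold of wild type in DTrsp, A34 and G37L for all 15 measured. The shares of all genes past 2-fold upward and downward were 3.27% and 1.62% in DTrsp, 1.4% and 0.452% in A34 and 2.51% and 3.96% in G37L, so these counts of 0 do not set the regulators apart. They ran from -0.75 to 0.81 in DTrsp. In G37H 1 of the 15 was at least 2-fold lower, the repressor Bach1 at -1.41, against 3.1% of all genes, and 0 higher, against 2.78%. Of 15 measured genes known as targets of such factors, 6 were at least 2-fold higher in DTrsp, against 3.27% of all genes, and 0 lower, against 1.62%, with a median of 0.77 against 0.16. Glutathione synthesis genes Gclc at 2.46 and Gclm at 1.28, the epoxide hydrolase Ephx1 at 1.69, the sulfiredoxin Srxn1 at 1.15, the quinone reductase Nqo1 at 1.14 and the PPARα target Cyp4a14 at 2.10 were the 6. In A34, where Ugt1a1 and Ugt1a6a were high, 0 of the 15 were at least 2-fold higher, against 1.4% of all genes, and 1 lower, against 0.452%, Cyp4a14 at -3.10. Cyp4a14 was also at -1.63 in G37L and -1.32 in G37H. Cyp2b10, the marker of the receptor CAR, was at 0.54 in DTrsp liver, -0.97 in A34, 1.37 in G37L and 2.84 in G37H, averaged over 3 probes. The list of target genes was written with earlier results of these data known and is no independent support.

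**Figure D4:**
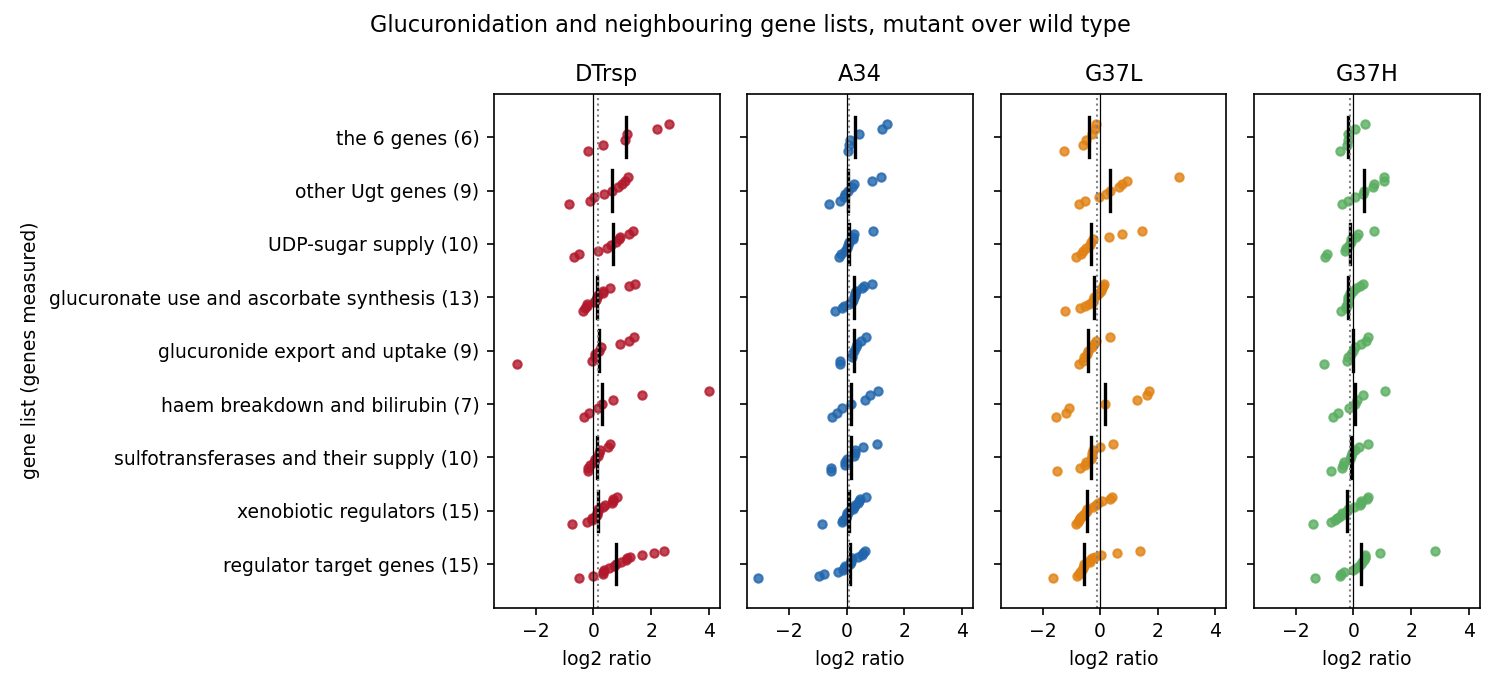
Log2 ratio of mutant over wild type (x axis) of the genes of each list (y axis, genes measured in brackets) in the 4 lines; points are genes, set apart vertically by order of value, black bars are list medians and the dotted line is the median of all genes. The 6 genes have a median of 1.14 in DTrsp. Near the dotted line there lie the medians of sulfotransferases (0.11), regulators (0.15), glucuronate use (0.12) and glucuronide export and uptake (0.18).

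In DTrsp the genes called abundant transcripts, which were taken by gene name and not by a measured level, had a median of 0.53. This bears on the calls of the pathway genes there. Of the 16 genes of these lists and of the other Ugt genes at least 2-fold higher in DTrsp, 13 stayed so relative to the column median, without Nqo1, Srxn1 and Ugt3a1. Relative to abundant transcripts 5 did: Hmox1 at 3.50, Gclc at 1.93, Cyp4a14 at 1.57, Ephx1 at 1.16 and Blvrb at 1.15. On that scale Ugp2 was at 0.84, Slc35d1 at 0.69, Abcc3 at 0.87 and Abcc2 at 0.69, against 2.09 for Ugdh and 1.68 for Ugt2b35.

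Genes closest to Ugdh across the 4 lines were sought by Euclidean distance over the 4 averaged log2 ratios. The 5 nearest of 9285 genes were Stmn1, which regulates microtubules, at a distance of 0.46, the glutathione transferase Gstm4 at 0.52, the ammonium transporter Rhbg at 0.55, the dimethylarginine hydrolase Ddah1 at 0.75 and Gclc at 0.76. Their DTrsp values lay between 2.10 and 2.82. The 5 nearest to Ugt1a6a were Clptm1 at 0.20, R3hdm4 at 0.30, the interferon-inducible GTPase Irgm2 at 0.32, the syntaxin Stx16 at 0.32 and the protease Tmprss6 at 0.33. Their A34 values lay between 1.14 and 1.30. Each distance rests on 4 values.

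Cell type markers differed from 0 in some of these lines. The 15 hepatocyte markers measured had medians of 0.56 in the knockout, 0.32 in A34, 0.58 in G37L and 0.57 in G37H liver. In the same order the reference housekeeping genes had medians of 0.52, 0.14, 0.28 and -0.10. The ribosomal protein genes had 0.52, 0.20, 0.33 and 0.16, so the shift in DTrsp was not particular to hepatocyte markers. Of the 15 hepatocyte markers, 0 were at least 2-fold higher in DTrsp liver, against 3.27% of all genes, and 0 in A34, against 1.4%. In G37L 2 were (Fga and Fgb), against 2.51%, and in G37H 0, against 2.78%. At least 2-fold lower was G6pc, at -1.02 in A34 and -1.15 in G37H, where 0.452% and 3.1% of all genes were. With shares this small, counts of 0 do not set the markers apart from all genes. The 10 macrophage markers had medians of 0.13 in the knockout, 0.65 in A34, 0.73 in G37L and 0.69 in G37H, with 1, 2, 3 and 2 at least 2-fold higher, against 3.27%, 1.4%, 2.51% and 2.78% of all genes. Their values in A34 ran from 0.15 to 1.12. The 10 stellate and endothelial markers had medians of 0.16 in DTrsp, 0.24 in A34 and -0.12 in G37H, with 1 at least 2-fold lower in G37L (Lrat), against 3.96% of all genes, and 1 in G37H (Des), against 3.1%, and the 2 cholangiocyte and 3 lymphocyte markers measured were within 2-fold of 0 in every line. The part of any cell type in the values of the 6 genes was not tested.

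The decimals of a value bear on how many arrays it rests on. An average of several values with 4 decimals often ends in a fraction of that decimal step, but some such averages have no fraction. In DTrsp 35.4% of values were whole only when multiplied by 4, 14.0% by 3 and 20.7% by 2, so most were averages of several arrays. A value with no fraction is therefore no sign of 1 array, and the number of arrays behind it is not known. Ugdh, Ugt2b5 and Ugt2b34 in DTrsp, Ugt1a1 in A34 and Ugt2b35 in G37L had no fraction. Ugt2b35 in DTrsp had a fraction, and so had 2 of the 3 Ugt1a6a probes in A34. Values with no fraction made up 29.8% of the DTrsp column, 30.7% of A34 and 37.8% of G37L. Leaving them out can also drop averages of several arrays, so the counts that follow are no measure of how reliable the dropped values are. By that rule 1 of 3 genes remained at least 2-fold higher in DTrsp, Ugt2b35, against 3.58% of all genes left. In A34 1 of 4 did, Ugt1a6a at 1.12, against 1.56%. In G37L 0 of 3 were higher, against 2.24%, and 0 lower, against 3.06%.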

How the data were processed

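Liver RNA of male mice was compared with that of wild-type littermates on 2-colour arrays. Per the labels, 15 µg of total RNA was copied into cDNA, wild type was labelled with Cy3 and mutant with Cy5, and the authors averaged the biological replicates before deposit. The deposited values are signed log ratios, read as log2; the base, the normalization, the background correction, any spot filter and any dye swap are not stated in those sources. The number of arrays limits the precision.

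Probes were named through the gene identifiers of the platform annotation and the mouse gene table of GRCm38.p6, which named 12984 probes; 63 kept the annotation's symbol, 110 name several genes and 2321 are not listed. Probes of a gene were averaged. No statistical test was run; genes at least 2-fold from 0 were counted beside the share of all 9285 genes. Counting and distance steps were tested on simulated data. The members and lists were chosen with earlier results of these data known. Named genes are the 6, every other Ugt gene, genes of the listed pathways at least 2-fold from 0 in any line, and the 5 nearest to Ugdh and to Ugt1a6a. A decimal was called whole within 0.02 of a step of 0.0001. Alternatives were other thresholds, centrings, probe rules, log base and column scale, and the Ugt1a genes counted as 1. The genes called abundant transcripts are 64 ribosomal protein genes, hepatocyte markers and reference genes, 90 in all. They were taken by gene name and not by a measured level, and include Tbp, at -0.71 in DTrsp. Leaving out values with no decimal fraction was added after seeing the data. Python 3.11.15 with pandas 2.3.3 and numpy 2.4.6 was used.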

Additional observations from a re-analysis of the deposited data

Results flagged for a closer look

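Named genes that were at least 2-fold higher in one line and at least 2-fold lower in another are listed here; with 1 averaged value per line, the difference was not tested. For Ugt2b35 the log2 ratio in G37L minus that in DTrsp was -3.45. Cryl1 differed by -2.66 and Blvrb by -2.76 between the same lines. Cyp4a14 differed by -5.20 between A34 and DTrsp.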

How the results depend on the processing

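No paired analysis was possible because each line has 1 averaged column, and for the same reason no animal could be left out. At 3-fold, 2 genes remained higher in DTrsp, against 0.657% of all genes, and 0 lower, against 0.162%. In A34 0 remained higher, against 0.237%, and 0 lower, against 0.0323%. In G37L 0 remained higher, against 0.657%, and 0 lower, against 0.635%. Centred on abundant transcripts, 2 remained higher in DTrsp, against 0.765% of all genes. In the difference of G37H minus DTrsp 2 remained lower, against 3.07%. With Ugt1a1 and Ugt1a6a taken as 1 gene, 1 was at least 2-fold higher in A34, against 1.4% of all genes. At 1.5-fold, 5 genes were lower in G37L than in A34, against 22.1% of all genes, and 0 higher, against 7.26%. For G37H minus G37L 3 were higher, against 11.6%, and 0 lower, against 9.79%. Leaving out values with no decimal fraction was chosen after seeing the data. It can drop averages of several arrays too, so it is no measure of reliability. By that rule 1 was at least 2-fold higher in DTrsp, against 3.58% of genes left. In A34 1 was higher, against 1.56%. In G37L 0 were higher, against 2.24%, and 0 lower, against 3.06%. The other 44 counts, natural logs and column scaling among them, stayed within 1.5 times the count reported. No gene past 2-fold changed sign, but this is no check of direction. Thresholds, log base and column scale cannot turn a sign, and the centrings moved values by less than 1. Only the choice among probes could have done so, and only for Ugt1a6a. Ugdh in DTrsp ran from 2.09 to 3.78 and Ugt2b35 from 1.68 to 3.19. Ugt1a6a in A34 ran from 1.01 to 2.01 and Ugt1a1 from 1.01 to 1.76. Signal over background is not in the values used here.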
